A study of Homo sapiens with 5 samples.

Results

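At day 22 of a protocol that turns human embryonic stem cells into gonadotropin-releasing hormone (GnRH) neurons, 563 of 9539 kept cells carried RNA of the Iroquois genes together with NR2F RNA, a share of 5.90% (95% exact Clopper-Pearson interval 5.44 to 6.39%). The series holds 44007 barcodes in all. A D22 barcode was a member when it had at least 1500 unique molecular identifiers (UMIs), at least 1000 genes and less than 20% mitochondrial UMIs, at least 1 UMI summed over IRX1, IRX2, IRX3 and IRX5, and at least 2 UMIs summed over NR2F1 and NR2F2. The 6 genes of the rule chose the cells, so their levels are given as a description. The members are called IRX-positive progenitors here: 530 of them (94.1%) held SOX2 UMIs, a mark of neural progenitors, against 66.4% of all kept D22 cells. These shares were not thinned and depend on depth, at a median of 14189 UMIs in members and 12183 in all kept cells. The markers SFRP2 and WLS, which the rule did not use, were higher in members than in the comparison cells. These markers were named with earlier results of these data known, so their levels are no independent support for the name.

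The comparison cells were the 5198 kept D22 cells with 0 UMIs of the 4 IRX genes and at least 1 SOX2 UMI. Their SOX2 level is raised by that choice. A further 2915 kept D22 cells had 0 UMIs of the 4 IRX genes and of SOX2, and they are given as the IRX-negative SOX2-negative cells. The remaining 863 kept cells had an IRX UMI and fewer than 2 NR2F UMIs, so they entered neither group.

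All cells came from WA09, an established human embryonic stem cell line. D22, D24 and D26 were each 1 droplet library of the same protocol, in which dorsomorphin and SB431542 blocked BMP and TGF-beta receptor signaling, FGF8 followed, and the Notch pathway inhibitor DAPT was added on the day before D22. These libraries received no Wnt inhibitor, and the cells had been frozen and thawed once on the way. With 1 library a day, cells are not replicates of a condition: no test between groups was possible, no p-value is given, and each interval covers counting error only.

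Iroquois genes encode homeodomain transcription factors that sit in clusters on the genome and help to divide the early neural plate. In vertebrate embryos they are expressed caudal to the anterior forebrain, where IRX3 and the forebrain factor SIX3 repress each other, and Wnt signals from caudal tissue favor the Iroquois side. NR2F1 and NR2F2 encode orphan nuclear receptors of the COUP-TF family that pattern the developing brain along its axes.

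Members held 9334917 UMIs in all, with a median of 14189 UMIs and 3640 genes a cell, against medians of 12773 UMIs and 3460.5 genes in comparison cells and 11192 UMIs in the IRX-negative SOX2-negative cells. The median mitochondrial share was 3.38% in members and 3.27% in comparison cells. The D22 library shared 27 barcodes with D24 and 37 with D26, 0.275% and 0.377% of its barcodes. Levels are UMIs summed over the cells of a group, scaled to counts per 1000000 UMIs of that group (CPM), and a gene was called higher or lower when the groups differed by at least 2-fold and 1 of them reached 20 CPM.

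Of the 4 Iroquois genes, IRX2 was the most often seen and the most abundant by UMIs. It had a UMI in 484 members (86.0%) at 171 CPM, whereas IRX1, IRX3 and IRX5 were seen in 289, 268 and 270 members at 56.5, 56.8 and 53.6 CPM. IRX1 and IRX2 lie in the Iroquois cluster of chromosome 5, and IRX3 and IRX5 in that of chromosome 16. UMIs from both clusters were found in 330 members (58.6%), from the chromosome 5 genes alone in 187 (33.2%) and from the chromosome 16 genes alone in 46 (8.17%). All 4 genes were seen together in 73 members and a single one in 134. The median member held 5 IRX UMIs and 8 NR2F UMIs. NR2F1 was at 443 CPM and NR2F2 at 128 CPM. Members made up 5.90% of the kept cells and held 71.9% of all IRX UMIs and 79.5% of all NR2F UMIs in them.

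Transcripts that start next to IRX2 and IRX5 were also higher in members. C5orf38, now named IRX2-DT, is transcribed away from IRX2, and the starts of both genes lie 454 bases apart on chromosome 5 (GRCh38, IRX2 at chr5:2745845-2751677 on the minus strand, C5orf38 at chr5:2752131-2755397 on the plus strand). C5orf38 stood at 71.9 CPM in members and 1.37 CPM in comparison cells, with the log2 ratio at 5.72 (5.42 to 6.03). CRNDE, a noncoding RNA gene whose start lies 1676 bases from that of IRX5 on chromosome 16, stood at 176 and 34.4 CPM (log2 ratio 2.35, from 2.26 to 2.44). The other genes of the clusters were nearly silent: IRX4 had 0 UMIs in members, and IRX6 had 5 UMIs. The window upstream of IRX2, which lies between the starts of this gene pair, is printed with those of SFRP2 and NR2F1, the Wnt antagonist and the nuclear receptor with the highest levels among the markers. Each is the 250 bases before the gene's start in RefSeq (GRCh38.p14), read 5′ to 3′ on the gene's strand. Capitals mark the POU octamer ATTTGCAT in SFRP2 and the TCF/LEF motif CTTTGAT in NR2F1, and the IRX2 window holds neither on either strand. The windows lie at chr5:2751678-2751927 (minus), chr4:153789084-153789333 (minus) and chr5:93582972-93583221 (plus).
IRX2: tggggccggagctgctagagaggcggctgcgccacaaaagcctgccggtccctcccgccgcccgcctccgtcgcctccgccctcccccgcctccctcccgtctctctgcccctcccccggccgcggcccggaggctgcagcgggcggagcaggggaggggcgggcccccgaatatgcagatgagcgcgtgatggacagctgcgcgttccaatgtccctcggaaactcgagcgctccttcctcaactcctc
SFRP2: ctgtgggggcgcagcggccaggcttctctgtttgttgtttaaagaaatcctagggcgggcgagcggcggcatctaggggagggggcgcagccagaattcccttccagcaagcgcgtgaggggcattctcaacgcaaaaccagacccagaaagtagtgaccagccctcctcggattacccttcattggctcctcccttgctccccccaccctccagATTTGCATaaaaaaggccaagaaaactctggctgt
NR2F1: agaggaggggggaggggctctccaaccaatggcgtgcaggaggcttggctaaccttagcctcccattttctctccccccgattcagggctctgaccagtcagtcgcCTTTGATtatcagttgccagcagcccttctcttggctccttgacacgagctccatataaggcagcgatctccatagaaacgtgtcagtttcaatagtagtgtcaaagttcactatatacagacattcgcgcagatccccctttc

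The octamer begins 35 bases before the start of SFRP2, and the TCF/LEF motif begins 144 bases before the start of NR2F1. Counted on both strands (ATTTGCAT or ATGCAAAT, CTTTGAT or ATCAAAG), the octamer was in 573 of 35116 windows of this length (1.63%) and the TCF/LEF motif in 794 (2.26%). Of the 15 genes that stood highest in members, 10 had a window under the symbol used in the counts. Some of these symbols have changed since, such as C5orf38, and genes without a match were not searched. Among the 10, the octamer was in the window of SFRP2, and the TCF/LEF motif in those of NTRK2 and POU3F2. A match is a run of letters and says nothing of binding.

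Across the transcriptome, 285 of 5920 genes tested (4.81%) were higher in members by at least 2-fold, and 237 (4.00%) were lower. The median log2 ratio over the tested genes was -0.01. Among the genes that stood highest were SFRP2 and WLS of the Wnt pathway, CRABP1, PTX3, POU3F2, CTGF, PDPN, NTRK2, C5orf38, ID3, DTX4, IGDCC3, RFX4 and the noncoding RNA AL359091.1. Among those that stood lowest were DLK1, C1orf61, FEZF2, NEUROG1, ZIC1, EMX2, LINC01551, ZIC4, PCP4, EMX2OS, FEZF1, CHRNA3, PCSK1 and DMRTA1. The genes named in both directions stayed past 2-fold in the same direction under every alternative listed in the closing section. The counts of each gene list stand against these shares of 4.81% higher and 4.00% lower.

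**Figure D1:**
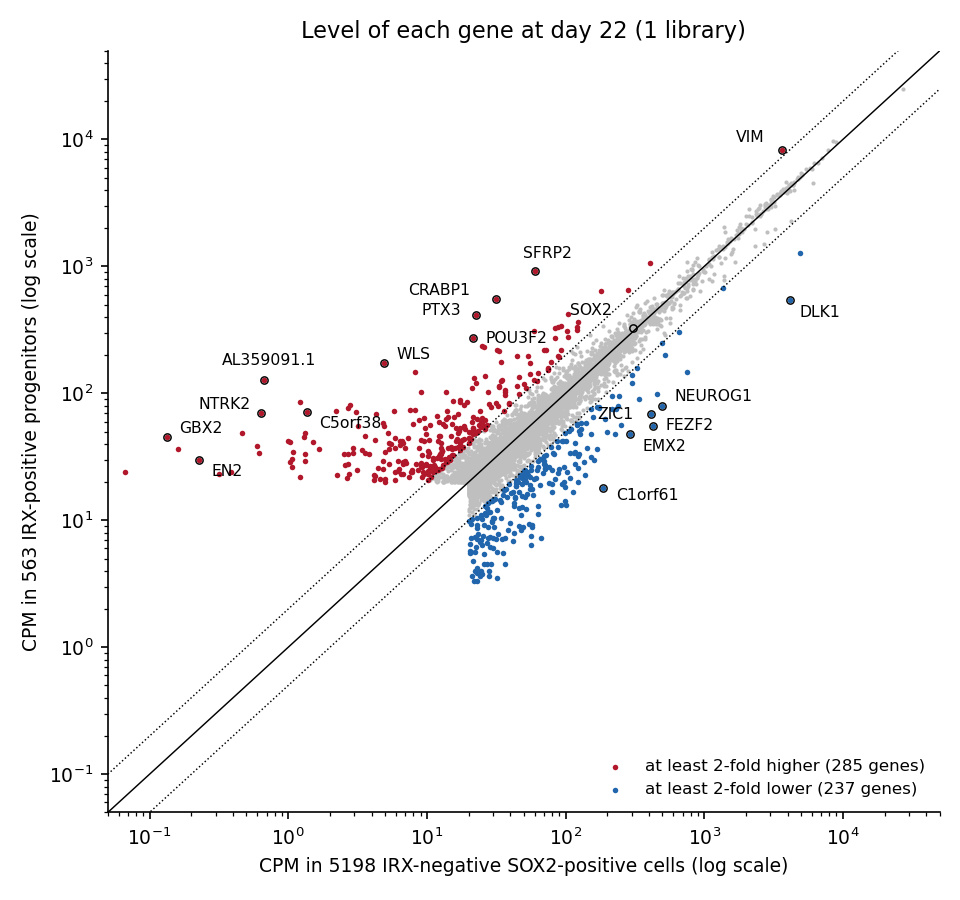
Level of each tested gene at D22 in the 5198 comparison cells (x axis, CPM, log scale) and in the 563 IRX-positive progenitors (y axis, CPM, log scale), 1 point a gene, with lines at equal levels and at 2-fold. SFRP2, WLS, POU3F2 and GBX2 lie above the upper line, DLK1, FEZF2 and ZIC1 lie under the lower line, and SOX2 lies between them.

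Wnt genes were among the largest differences. SFRP2, a secreted protein that binds Wnt ligands, stood at 929 CPM in members (interval 909 to 948) and 60.6 CPM in comparison cells, 15.3-fold apart. In single members it ran from 53.9 CPM at the 10th percentile through a median of 641 CPM to 2290 CPM at the 90th, whereas the median comparison cell had none. The groups overlapped, since the 90th percentile of the comparison cells was 164 CPM. WLS, which carries Wnt ligands to the cell surface, stood at 173 and 4.89 CPM, a log2 ratio of 5.15, or 4.36 when cells were chosen on 50% of each cell's UMIs and measured on the other 50%. After each cell was thinned to 1500 UMIs, 58.4% of members and 6.71% of comparison cells held an SFRP2 UMI, and 22.9% and 0.462% held a WLS UMI. Without thinning the shares were 90.8% and 32.6% for SFRP2 and 74.2% and 2.17% for WLS, and in the IRX-negative SOX2-negative cells, where the neuronal gene STMN2 stood at 2981 CPM, they were 7.03% and 0.652%. Of the 418 members with WLS, 400 (95.7%) also held SFRP2.

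Among the other Wnt genes the members had a mixed profile. Of 14 ligand and carrier genes 3 passed the filter on low levels: WLS and WNT7A (23.4 and 0.319 CPM, log2 ratio 6.20, or 5.21 with split UMIs) were higher and WNT5B (log2 ratio -2.09) was lower. WNT1 was at 0 UMIs in members, and WNT5A reached 16.8 CPM against 1.85 CPM, under the filter. Over all tested genes 4.81% were higher and 4.00% lower. Of 15 modulators 5 passed, with SFRP2 and SFRP1 (311 and 103 CPM) higher and FRZB, RSPO3 and CPE lower, the last a peptide-processing enzyme that also binds Wnt. The call of RSPO3 was lost under 2 alternatives. FRZB, another secreted Wnt antagonist, had a log2 ratio of -2.53. Of 15 receptor genes 8 passed: FZD7 (53.0 and 9.72 CPM) and LGR4 (42.1 and 6.41 CPM), a receptor for R-spondins, were higher, and FZD8 (6.21 and 28.8 CPM) was lower. Genes that Wnt signaling commonly induces were low in both groups, and only SP8 of 10 passed the filter, at 26.9 and 24.3 CPM. AXIN2 stood at 3.86 and 2.87 CPM, LEF1 at 2.36 and 5.55 CPM and APCDD1 at 8.14 and 0.332 CPM.

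Some genes of the midbrain, the midbrain-hindbrain boundary and the thalamus stood far higher in members and were hardly seen in comparison cells. Of 12 genes of the midbrain and its boundary 3 passed the filter, EN2 and CNPY1 were higher and SPRY1 was lower, a call lost under 7 alternatives, and the list summed to 314 CPM in members and 532 CPM in comparison cells, most of it SPRY1 (248 and 498 CPM). GBX2, a homeobox gene of the thalamus and the anterior hindbrain, stood at 45.5 and 0.133 CPM (log2 ratio 8.42, from 7.53 to 9.49). When cells were chosen on 50% of each cell's UMIs and measured on the other 50%, its ratio was 5.96. EN2, an Engrailed gene of the midbrain and anterior hindbrain, stood at 30.0 and 0.226 CPM, and its neighbor CNPY1, whose start lies 97.3 kb away, at a log2 ratio of 8.50, or 6.65 with the UMIs split in that way. GBX2 was seen in 44.4% of members, 0.192% of comparison cells and 0.172% of the SOX2-negative cells, or in 6.93% of members and 0.0192% of comparison cells after thinning. Other genes of these regions were under the filter. EN1 was at 4.39 and 0.0664 CPM, and DBX1 at 4.82 and 0.0398 CPM. FGF8 and FGF17, the ligands made at the boundary, were also under it, at 1.18 and 9.44 CPM and at 1.61 and 16.2 CPM. LHX9, which is expressed in the thalamus and cortical regions, was lower, at 21.4 and 109 CPM, and TCF7L2 was at 72.3 and 69.5 CPM. OTX2, which the paper calls a marker of forebrain and midbrain, was lower too, with a log2 ratio of -2.45. HOX genes, which mark the hindbrain behind its most anterior part and the spinal cord, were hardly detected: 13 of 14 had 0 UMIs in members, which allows a level of up to 0.321 CPM, and HOXB2 had 4 UMIs.

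Single genes of dorsal and of ventral progenitors stood higher, while the counts of both lists went both ways. Of 15 genes of the dorsal neural tube and roof plate 6 passed the filter, BMP7 was higher (73.5 and 7.54 CPM) and 3 were lower, among them ZIC1 and ZIC4, with a median log2 ratio of -1.68. Of 15 ventral genes 4 passed, of which NKX6-2 and PTCH1 were higher and DLX1 (22.5 and 47.0 CPM) and DLX2 (14.7 and 30.4 CPM), homeobox genes of the ventral forebrain, were lower, with calls lost under 3 and 4 alternatives. NKX6-2, a homeobox gene of ventral progenitors, stood at 33.9 and 0.611 CPM, and PAX3 and PAX7, of dorsal progenitors, at 6.11 and 0.0664 CPM and at 6.96 and 0.624 CPM. NKX6-1 or NKX6-2 was seen in 81 members (14.4%) and PAX3 or PAX7 in 70 (12.4%), and 0 of 563 members held UMIs of both kinds. This limits the share of cells with UMIs of both to 0.533%, not the share that expressed both, since these genes gave few UMIs a cell. DBX1, of the intermediate domain, was seen in 29 members, 8 of which held PAX3 or PAX7. GBX2 was found in 250 members and EN1 or EN2 in 177, and 89 held both. EN1 or EN2 was thus in 35.6% of members with GBX2 and in 31.4% of all members, and GBX2 in 50.3% of those with EN1 or EN2 and in 44.4% of all. CNPY1 was seen in 126 members, and 88 of these (69.8%) held EN1 or EN2. These sets of cells were drawn up after their values were seen and are ranges of sparse counts. The most ventral genes were not detected, since SHH, FOXA2, NKX2-1 and NKX2-2 had 0 UMIs in members, which allows up to 0.321 CPM, while PTCH1, the SHH receptor, stood at 58.6 and 4.85 CPM. The roof plate gene LMX1A also had 0 UMIs.

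**Figure D2:**
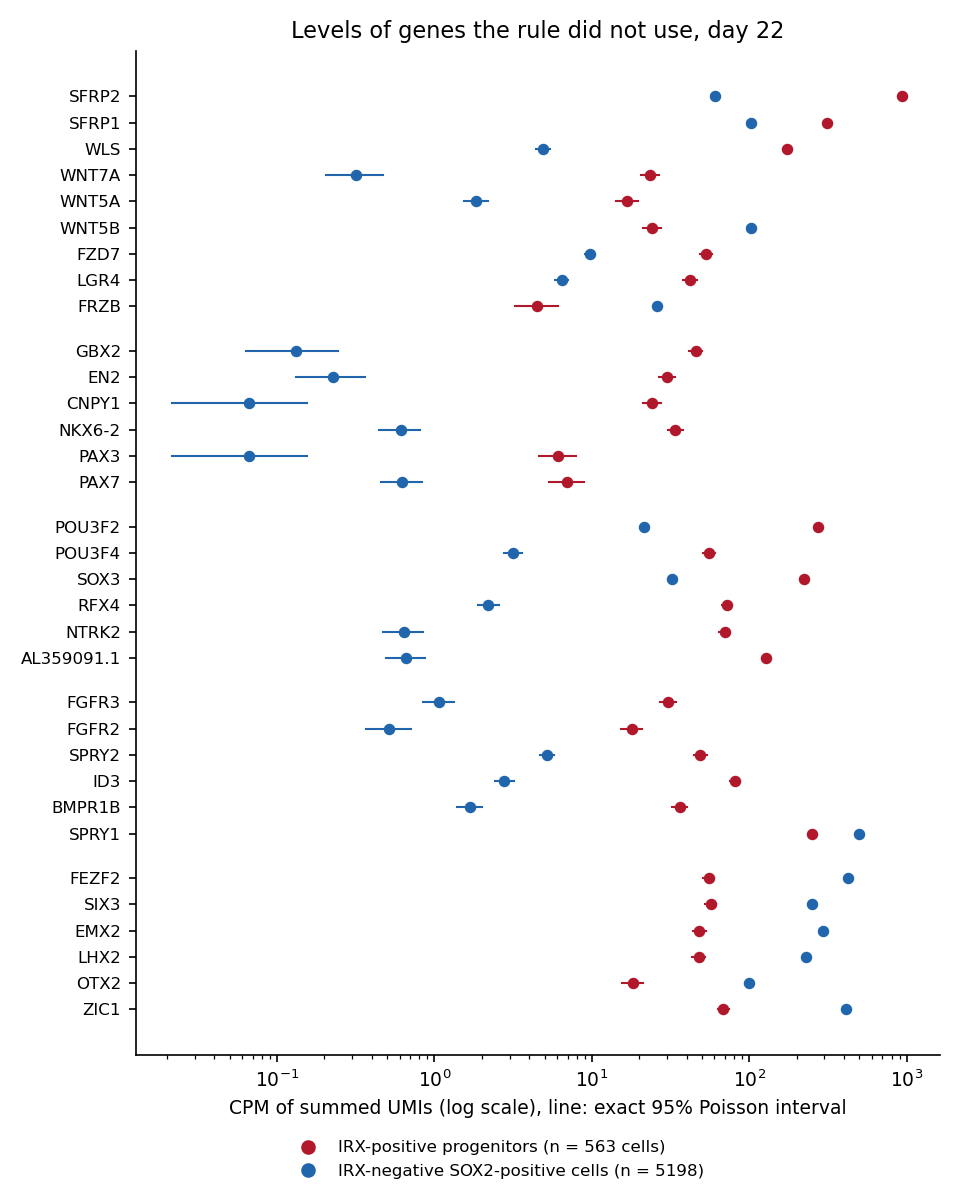
Levels at D22 (x axis, CPM, log scale) of genes the rule did not use, grouped by pathway or region, in the 563 members (red) and the 5198 comparison cells (blue). Lines through the points are exact 95% Poisson intervals of the counts. SFRP2, GBX2, POU3F2 and FGFR3 stand higher in members, while FEZF2 of the forebrain list and SPRY1 of the FGF list stand lower.

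The members had progenitor features, and many were dividing. Of 20 progenitor genes 17 passed the filter, 6 were higher, 1 was lower and the median log2 ratio was 0.40 against -0.01 over all tested genes. The higher ones were VIM, an intermediate filament of neural stem cells (8251 and 3624 CPM), SOX3 (221 and 32.2 CPM), SOX21 (113 and 33.3 CPM), FABP7 (280 and 104 CPM), PTPRZ1 (365 and 123 CPM) and RFX4 (72.0 and 2.20 CPM). SOX2 itself was at 330 and 305 CPM and PAX6 at 95.7 and 106 CPM. NOTCH1 was the lower one, at 21.2 and 50.7 CPM. At least 2 UMIs of MKI67 and TOP2A, genes of dividing cells, were found in 251 members (44.6%) and in 36.8% of comparison cells. These shares were not thinned and depend on depth, which was higher in members. Between cells of 8000 to 25000 UMIs, the log2 ratio was 0.07 for MKI67 and -0.14 for TOP2A. Within the cell cycle list of 20 genes, 5 were higher (4.81% over all tested genes) and none lower. The 5 were PCNA (78.4 and 28.9 CPM), MCM3, MCM5, MCM6 and TYMS, while MCM2 (26.4 and 16.4 CPM) and RRM2 (59.5 and 31.5 CPM), which like them act in DNA replication, were not called. The call of TYMS was lost between dividing cells and when cells were chosen on a part of their UMIs. Genes of mitosis differed little, with MKI67 at 217 and 190 CPM, TOP2A at 529 and 526 CPM and CCNB1 at 234 and 225 CPM. CCND2, a D-type cyclin, was at 342 and 92.8 CPM.

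Genes of neuronal commitment stood lower. None of the 9 proneural genes that passed the filter was higher and 5 were lower, with a median log2 ratio of -1.02, where 4.81% of all tested genes were higher and 4.00% lower. NEUROG1, a bHLH factor that starts neuronal differentiation, stood at 80.2 and 496 CPM, NEUROD1 at 28.7 and 136 CPM and NHLH1 at 26.4 and 97.6 CPM. The calls of NEUROD4 and HES6 were lost under 3 and 4 of the alternatives. Among 13 neuronal genes tested, STMN2 (307 and 653 CPM), ELAVL3 (80.0 and 240 CPM), ELAVL4 and RTN1 were lower and none was higher. For STMN2 the call depended on the cells taken: the log2 ratio was -1.09, and it was -0.55 between dividing cells and -0.54 with 1 NR2F UMI enough for membership, but -1.97 without the cells of the highest doublet scores and -2.15 against all IRX-negative cells.

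Single genes of the FGF, BMP, retinoid and Notch lists were called, where 4.81% of all tested genes were higher and 4.00% were lower. For FGF, 9 of 13 receptor and response genes passed the filter, and FGFR3 (30.6 and 1.06 CPM), FGFR1 (143 and 55.0 CPM), SPRY2, ETV1 and SPRED1 were higher, while SPRY1, whose call was lost under 7 alternatives, and IL17RD were lower. FGFR2, ETV4 and ETV5 were under the filter at 18.0, 11.6 and 11.8 CPM in members and 0.518, 0.770 and 1.61 CPM in comparison cells. For BMP, 6 of 15 genes passed and 4 were higher: ID3 (81.5 and 2.77 CPM) and ID2 (85.7 and 19.5 CPM), which block bHLH factors, the receptor BMPR1B (36.2 and 1.67 CPM), and FST (34.6 and 1.08 CPM), a secreted binder of activin. ID4 was at 298 and 512 CPM. Retinoid genes differed both ways. CRABP1, a cytoplasmic binder of retinoic acid, stood at 549 and 31.5 CPM and CYP26A1, which degrades it, at 38.7 and 0.597 CPM, whereas CRABP2 stood lower at 21.2 and 83.5 CPM. CRABP1 was also present in the IRX-negative SOX2-negative cells, at 96.8 CPM. Of 16 Notch genes 9 passed, with DTX4 higher (76.5 and 2.72 CPM), NOTCH1 lower, the other 7 not called and a median log2 ratio of -0.01, and HES1 was under the filter at 12.4 and 2.06 CPM.

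POU factors and surface genes completed the profile. POU3F2, a POU homeodomain factor of the nervous system, stood at 271 and 21.4 CPM and POU3F4 at 55.5 and 3.17 CPM, whereas POU3F3 was at 63.2 and 69.8 CPM and POU3F1 was under the filter at 13.4 and 18.6 CPM. NTRK2, the receptor of the neurotrophin BDNF, stood at 69.5 and 0.637 CPM, a log2 ratio of 6.77, or 5.48 with the UMIs split for choice and measurement. Of 17 matrix and adhesion genes 13 passed, 6 were higher (4.81% over all tested genes) and none lower (4.00%), among them PTX3, a secreted pentraxin (413 and 22.5 CPM), the mucin-like protein PDPN (85.5 and 1.22 CPM) and the heparan sulfate proteoglycan GPC4 (103 and 13.8 CPM). Of 21 axon guidance genes 12 passed, 6 were higher, such as EPHA3 (41.4 and 1.51 CPM) and EFNB2 (84.8 and 17.2 CPM), and 3 were lower, DCC (34.0 and 109 CPM), NRP1 and SLIT2, whose call was lost under 2 alternatives.

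A microRNA host gene was among the genes that stood highest. AL359091.1, named MIR219A2HG in GENCODE release 44, is a noncoding RNA gene at chr9:128392007-128393510 on the minus strand. It stood at 128 CPM in members and 0.664 CPM in comparison cells, with the log2 ratio at 7.59 (7.19 to 8.03), or 5.97 when cells were chosen on 50% of their UMIs and measured on the other 50%. It was seen in 68.2% and 0.481% of cells, in 0.549% of the SOX2-negative cells, and in 15.8% and 0.0385% of members and comparison cells after thinning. The hairpin of MIR219A2 (chr9:128392618-128392714) lies between the start and end of this gene. The arms of that hairpin in RefSeq are printed with the seed, bases 2 to 8, in capitals because the host transcript is the readout here. The mature arms themselves were not measured by counting polyadenylated RNA. They lie on the minus strand at chr9:128392676-128392696 and chr9:128392632-128392653 and have different seeds.
hsa-miR-219a-5p: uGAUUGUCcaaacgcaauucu
hsa-miR-219a-2-3p: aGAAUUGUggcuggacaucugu

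Anterior forebrain genes were lower as a group. Of 18 listed genes 12 passed the filter, 11 were lower and none was higher, with a median log2 ratio of -2.38 against -0.01 over all tested genes. FEZF2 stood at 55.1 and 425 CPM, SIX3, the gene that opposes IRX3 in embryos, at 56.7 and 251 CPM, EMX2 at 48.0 and 293 CPM, LHX2 at 47.6 and 228 CPM and OTX2 at 18.2 and 99.6 CPM. SP8 was the 1 tested gene that was not called. DLK1, a noncanonical Notch ligand, stood at 541 and 4126 CPM, and ZIC1 at 68.2 and 413 CPM. DLK1 was seen in 48.0% of members and 99.0% of comparison cells, or in 19.2% and 95.9% after thinning.

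The remaining forebrain UMIs sat in a minority of the members. With the 18 forebrain genes summed, 183 members (32.5%) had 0 UMIs, 233 (41.4%) had 1 to 3, 44 had 4 to 9 and 103 (18.3%) had 10 or more, against a median of 26 in comparison cells. DLK1, which is not one of the 18 genes, stood at 30.9, 48.5, 172 and 1790 CPM in the 4 sets, and SFRP2 stood at 1158, 1154, 733 and 456 CPM. The set with 10 or more had a median of 24108 UMIs a cell, against 12149 in the set with 0. When the 6% of kept cells with the highest doublet scores were marked, the marks fell on 70 of the 103 (68.0%) and on none of the 183, and on 78 members (13.9%) and 336 comparison cells (6.46%) in all. Without the marked cells the log2 ratio was -4.45 for DLK1 in place of -2.93, -4.48 for FEZF2 in place of -2.95, -4.18 for EMX2 in place of -2.61, and 4.07 for SFRP2 in place of 3.94. These sets were drawn up after the values were seen, and the part of doublets in them was not tested.

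Marker lists of other cell types were low. Neural crest genes summed to 37.8 CPM over 10 genes in members and 15.7 CPM in comparison cells, with SOX10 at 0 and TFAP2B at 6.21 CPM. TFAP2B, under the filter, had a log2 ratio of 7.29, or 5.21 with split UMIs. The mesenchyme list held a single gene past the filter. COL3A1, a fibrillar collagen, was at 36.3 and 0.159 CPM (log2 ratio 7.83, or 6.31 with split UMIs) and was seen in 97 members, whereas COL1A1, LUM, DCN and PDGFRA were at 1.29, 0.321, 0.107 and 0.214 CPM. Genes of retina and choroid plexus, epithelium and glia summed to 20.6, 27.6 and 9.32 CPM in members, under their sums of 101, 59.5 and 15.5 CPM in comparison cells. OTX2, already given with the forebrain genes, made up most of the retina and choroid plexus sums. Pluripotency genes summed to 103 and 99.9 CPM, with POU5F1 at 0.321 CPM. Placode genes summed to 73.1 and 123 CPM, nearly all of it DACH1. Genes of stress responses, which dissociation can induce, summed to 160 and 145 CPM, and none of the 3 tested was called. GNRH1 was at 0.857 and 5.28 CPM.

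Cells on both sides of the thresholds showed how the rule cuts. Members with 1 IRX UMI (74 cells) had SFRP2 at 660 CPM and DLK1 at 947 CPM, those with 2 (54 cells) 553 and 629 CPM, those with 3 to 5 (193 cells) 1062 and 397 CPM, and those with 6 or more (242 cells) 980 and 511 CPM. GBX2 stood at 17.5, 29.3, 46.3 and 55.5 CPM in these sets. Just outside, 95 cells with an IRX UMI and 1 NR2F UMI had SFRP2 at 166 CPM and DLK1 at 1933 CPM, and 768 cells with an IRX UMI and no NR2F UMI had 53.7 and 3713 CPM. The comparison cells were at 60.6 and 4126 CPM. Other genes stood higher in the 768 cells than in the comparison cells, with CRABP1 at 112 and 31.5 CPM, AL359091.1 at 3.53 and 0.664 CPM, EN2 at 2.52 and 0.226 CPM and STMN2 at 1340 and 653 CPM. Unlike the comparison cells, the 768 cells were not chosen on SOX2. Of the 863 cells below the NR2F threshold, 70.0% held a SOX2 UMI. STMN2 and CRABP1 stood higher in IRX-negative SOX2-negative cells than in comparison cells, and the part of this difference in choice was not tested. A set of 168 cells with 2 or more NR2F UMIs and no IRX UMI had SFRP2 at 408 CPM and DLK1 at 1221 CPM, between the levels of members and comparison cells. Their STMN2, at 2439 CPM, was above both groups, and their SOX2, at 245 CPM, was under both. They were not chosen on SOX2, and those with a SOX2 UMI were also comparison cells.

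**Figure D3:**
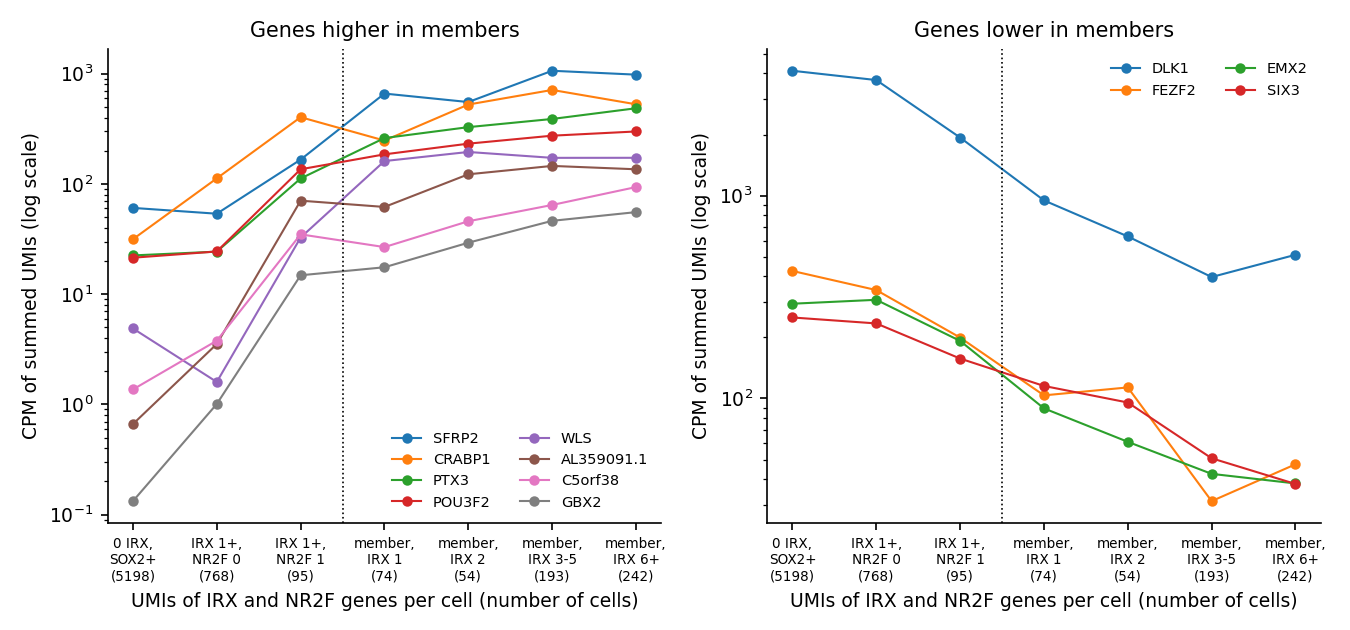
Levels at D22 (y axis, CPM, log scale) of genes that stood higher or lower in members, 1 panel each, in sets of cells by their IRX and NR2F UMIs (x axis, number of cells in brackets), without error bars. The dotted line divides the cells outside the rule from the members. SFRP2 is at 53.7 CPM in cells with an IRX UMI and no NR2F UMI and at 980 CPM in members with 6 or more IRX UMIs, and DLK1 is at 3713 and 511 CPM.

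The share of UMIs on neuronal genes varied among the members. They were set in 3 ranges of 188, 187 and 188 cells by the share of their UMIs on 15 neuronal genes, cut at 560 and 1035 CPM, and 99 cells lay within 10% of a cut. STMN2, a list gene and so part of the cut, ran from 11.5 through 25.4 to 881 CPM. Outside the list, CDKN1C, a cell cycle inhibitor, ran from 534 through 868 to 1861 CPM, HES6 from 401 through 493 to 1142 CPM and NEUROD4 from 9.23 through 20.9 to 95.7 CPM. MKI67 went the other way, from 276 through 263 to 111 CPM, as did ID3 (141, 73.3 and 29.8 CPM), NKX6-2 (66.8, 27.4 and 7.04 CPM) and VIM (9590, 8541 and 6619 CPM). Of the Iroquois genes, IRX1 was at 56.0, 56.1 and 57.3 CPM and IRX2 at 172, 184 and 158 CPM, while IRX3 ran from 67.1 through 59.7 to 43.5 CPM and IRX5 from 69.0 through 53.5 to 38.1 CPM. GBX2 was at 46.1, 46.3 and 44.2 CPM, and SOX2 at 335, 366 and 288 CPM. SFRP2 was lower in the highest range, at 521 CPM against 1139 and 1128 CPM, and CRABP1 was higher there, at 833 CPM against 418 and 394 CPM. Forebrain genes were higher along the same ranges, with DLK1 at 129, 440 and 1054 CPM, FEZF2 at 9.23, 53.1 and 103 CPM and EMX2 at 11.8, 32.3 and 99.9 CPM. STMN2 stood at 888 CPM in the 78 members with the highest doublet scores and at 150 CPM in the other 485, and the part of doublets in the ranges was not tested.

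**Figure D4:**
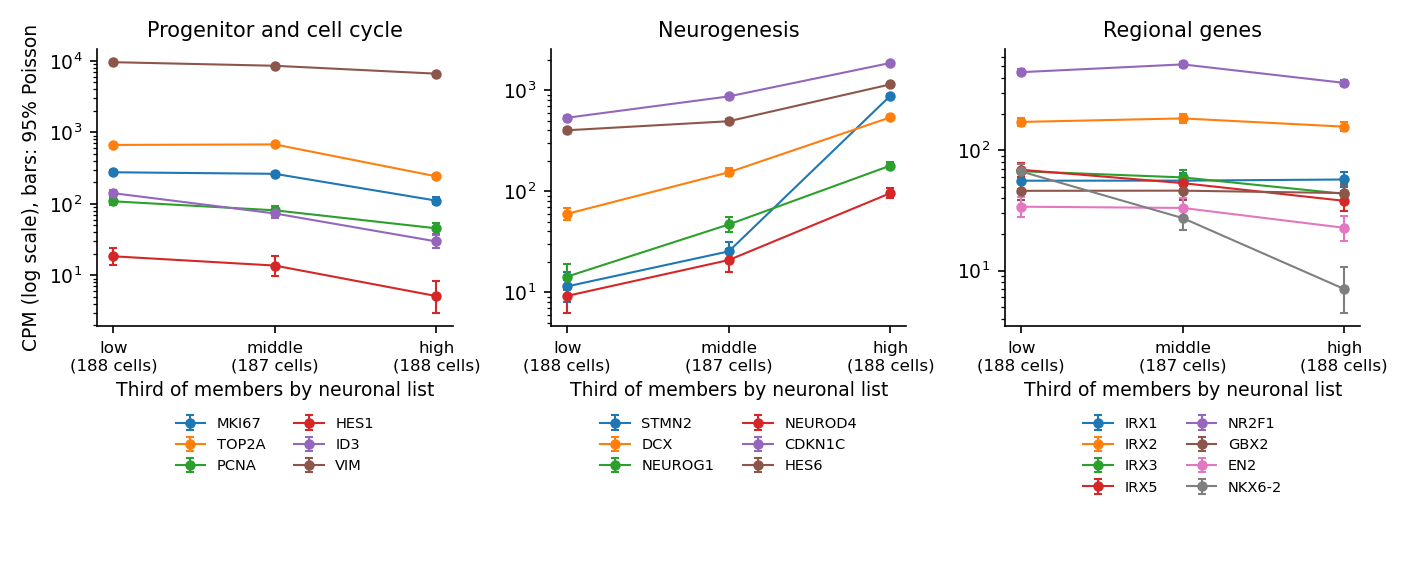
Levels in the 563 members (y axis, CPM, log scale) across 3 ranges of the neuronal share of their UMIs (x axis, low to high), with 95% Poisson intervals, in panels of progenitor and cell cycle genes, neurogenesis genes and regional genes, 1 line a gene. STMN2 is at 11.5 CPM in the low and 881 CPM in the high range, ID3 at 141 and 29.8 CPM, and IRX2 lies between 158 and 184 CPM.

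Dividing members had lower levels of CDKN1C and CRABP1 than those with no UMI of MKI67 and TOP2A. The 251 members with at least 2 UMIs of MKI67 and TOP2A had a median of 19970 UMIs, and the 242 with none had 11940.5. CDKN1C stood at 587 and 1863 CPM, PCNA at 107 and 41.0 CPM, DLL3 at 156 and 567 CPM and CCND2 at 206 and 535 CPM. CRABP1 stood at 348 and 864 CPM and WNT7A at 14.7 and 38.8 CPM, while SFRP2 stood at 875 and 1028 CPM. Against comparison cells of the same kind, the log2 ratio of SFRP2 was 3.26 between dividing cells and 4.99 between cells with no UMI of MKI67 and TOP2A. For WLS it was 4.95 and 5.89, and for FEZF2 -2.60 and -3.25. These ratios also depend on the levels in the comparison cells, which are not given here. In the members themselves WLS stood at 179 and 164 CPM.

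The same rule met other cells on the later days. It chose 219 of 9110 kept cells at D24 (2.40%) and 257 of 11060 at D26 (2.32%), and SOX2 UMIs were in 30.1% and 23.0% of them. Dividing cells were 8.22% of them at D24 and 1.56% at D26. Among all kept cells of D24 and D26, SOX2 UMIs were in 6.09% and 4.42%, and dividing cells were 0.648% and 0.108%. The cells that met the rule had a median depth of 7867 and 9851 UMIs, lower than the 14189 of D22. STMN2, of young neurons, stood at 307, 5753 and 7135 CPM on the 3 days and VIM at 8251, 1484 and 648 CPM. SFRP2 was at 929, 40.6 and 34.0 CPM, WLS at 173, 76.6 and 50.0 CPM, AL359091.1 at 128, 44.1 and 7.99 CPM and GBX2 at 45.5, 13.2 and 10.8 CPM. CRABP1, in contrast, stood at 549, 1623 and 959 CPM. SST, which encodes the peptide somatostatin, was at 0.107, 118 and 14.9 CPM, and the axon receptor ROBO3 at 6.53, 349 and 30.6 CPM. The counts were 1, 233 and 43 UMIs for SST and 61, 688 and 88 UMIs for ROBO3. How many cells held them on the later days is not given. GNRH1 stood at 52.2 CPM in the D24 cells and 1054 CPM in those of D26, against 8878 and 13983 CPM in the IRX-negative SOX2-positive cells of those days. A list of 9 genes of GnRH and glutamatergic neurons summed to 395 and 1463 CPM in the cells that met the rule. It summed to 9531 and 14786.5 CPM in the IRX-negative SOX2-positive cells, and to 1361 and 3657 CPM in the IRX-negative SOX2-negative cells. GNRH1 made up most of the list's sum in the IRX-negative SOX2-positive cells on both days. The same held at D26 in the cells that met the rule. Day, library and depth cannot be told apart here.

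Against the IRX-negative SOX2-positive cells of the same day (427 at D24 and 403 at D26), 237 of 5590 genes (4.24%) were higher and 212 (3.79%) lower at D24, and 220 of 6426 (3.42%) were higher and 183 (2.85%) lower at D26. Of the 61 named genes called higher at D22, 28 were called higher again at D24 and 19 at D26, and of the 46 called lower, 23 and 14 were. Calls in the other direction numbered 1 and 5 at D24 and 0 and 6 at D26. Some of the named genes were chosen for their large ratios at D22. The share called again over all genes called at D22 was not computed. The log2 ratio of ZIC1 was -2.60, -2.35 and -2.49 on the 3 days, and that of SIX3 was -2.15, -2.51 and -2.08. C5orf38 stood at 71.9, 45.1 and 38.6 CPM in the chosen cells and 1.37, 7.10 and 2.81 CPM in their comparison cells. The ratio of WLS was 5.15, 1.17 and 0.50, with comparison cells at 4.89, 34.0 and 35.4 CPM, so at D26 it was not called.

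**Figure D5:**
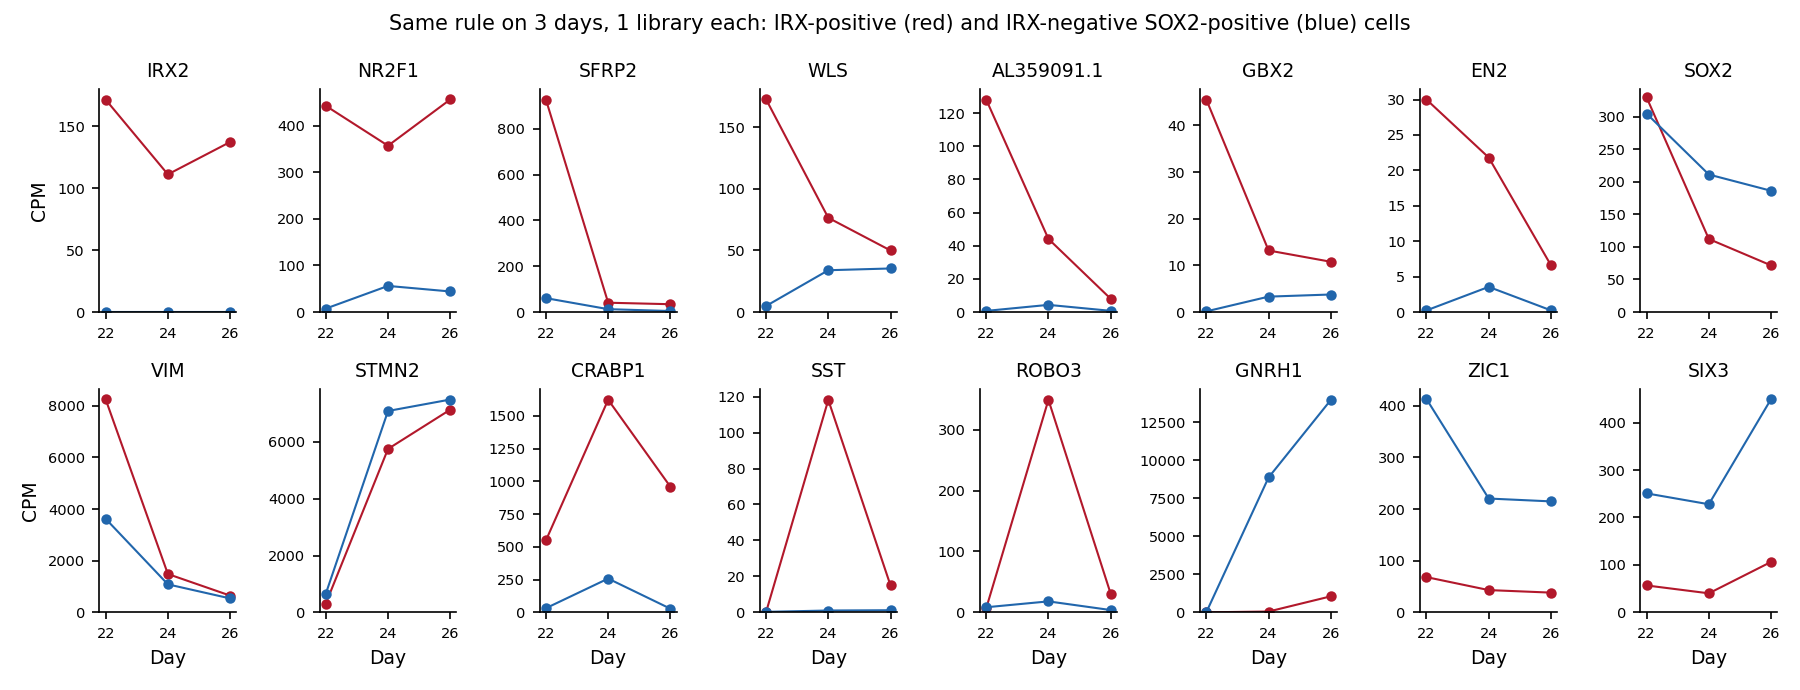
Levels of genes (y axis, CPM, linear scale from 0) in the 563, 219 and 257 cells that met the rule at D22, D24 and D26 (x axis, red) and in the IRX-negative SOX2-positive cells of each day (blue), 1 panel a gene and without error bars. SFRP2 is at 929 CPM at D22 and 34.0 CPM at D26, and STMN2 at 307 and 7135 CPM.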

How the data were processed

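The libraries of D22, D24 and D26, 1 a day, were used. The deposited values are UMI counts per gene and barcode that the authors made with Cell Ranger 3.1 on GRCh38 from 10x Genomics 3′ v3 libraries. They are not normalized. The D22, D24 and D26 libraries held 131583840, 71397909 and 100865176 UMIs in 9824, 9905 and 12171 barcodes. The multiplexed libraries of days 0 to 10 were not used here.

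Barcodes were filtered as stated, UMIs were summed over the cells of a group and scaled to CPM, and ratios were taken where 1 group reached 20 CPM, the 6 rule genes left out. Levels carry exact 95% Poisson intervals and ratios the interval of the exact binomial split. To compare shares, each cell was thinned to 1500 UMIs. Doublets were left in, and Scrublet as shipped with scanpy 1.11.5 gave the scores (its automatic threshold marked 413 of 9539 cells, 4.33%). Scripts used Python 3.11.15, numpy 2.4.6, pandas 2.3.3 and scipy 1.17.1, and were tested on simulated data. Positions are from GENCODE release 44. EMX2 and EMX2OS, and ZIC1 and ZIC4, overlap on opposite strands. Named genes were those of the gene lists and the 15 with the largest log2 ratio each way, with 10 CPM added to both groups, where 1 group reached 50 CPM, mitochondrial and ribosomal protein genes left out, and a few of these genes are not reported here. The members and the lists were chosen with earlier results of these data known, so agreement of the lists with them is no independent support. Alternatives covered the IRX, NR2F and SOX2 thresholds, depth, quality filters, doublets, split UMIs, cell cycle, weighting, scaling and the filter on low genes.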

Additional observations from a re-analysis of the deposited data

Results flagged for a closer look

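Only the named genes were searched for a turn of direction between days, and 107 of them were called at D22. For 9 of these 107 genes the direction turned on a later day. Their log2 ratio of the cells that met the rule to the IRX-negative SOX2-positive cells was past 2-fold both times. The difference between days was not tested, and the later cells that met the rule were mostly SOX2-negative. The comparison cells differed between days too, with STMN2 at 653, 7088 and 7491 CPM in them. Proneural genes made up most of the 9, but the named genes include a list of 12 proneural genes. The share of turns over all genes called at D22 was not computed. NEUROG1 went from -2.63 at D22 to 4.10 at D26, with 80.2 and 496 CPM at D22 and 28.1 and 1.64 CPM at D26. NEUROD1 went from -2.24 to 1.34 at D24 and 4.28 at D26. NEUROD4 went from -1.19 to 2.06 and 5.45, with 42.0 and 95.9 CPM at D22 and 20.5 and 0.469 CPM at D26. NHLH1 went from -1.89 to 1.55 and 4.99, and HES6 from -1.02 to 1.14 at D24. NEUROG1 and NEUROD4 were thus lower at D26 than at D22 in both groups. In the cells that met the rule, NEUROD1 was at 28.7 and 86.5 CPM at D22 and D26, and NHLH1 at 26.4 and 44.8 CPM. In the comparison cells they were at 136 and 4.45 CPM and at 97.6 and 1.41 CPM.

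The other genes were LHX5, from -1.92 to 1.08 at D26, CRABP2, from -1.98 to 1.89 at D26, and CHRNA3, a nicotinic receptor subunit, from -2.81 to 1.31 at D24. CDH6, a cadherin, went the other way, from 2.79 to -1.11 at D24, with 20.8 and 44.9 CPM there.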

How the results depend on the processing

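None of the 107 named genes called changed direction under any alternative, while 51 of the 154 not called took both signs, among them GNRH1, from -2.62 to 0.60 between dividing cells. The number of members was 242 when cells with any UMI of MKI67 or TOP2A were left out and 251 when at least 2 were required, which follows from taking fewer cells, and 417 to 658 under the other alternatives. The genes higher and lower by 2-fold numbered 602 and 509 with a filter of 5 CPM and 60 and 61 with one of 100 CPM, which follows from testing more or fewer genes, and 256 to 374 and 185 to 309 otherwise. Of 107 named genes called, 9 lost the call with 1 NR2F UMI enough for membership, 8 between dividing cells, 7 against all IRX-negative cells, 6 when cells were chosen on 50% of each cell's UMIs and measured on the other 50%, and up to 4 elsewhere. Among those named in the report, SPRY1, HES6, STMN2, NEUROD4, TYMS, DLX1, DLX2, RSPO3, RTN1 and SLIT2 lost it at least once. Choosing on 50% of the UMIs moved 13 of them by over 1.5-fold, such as the log2 ratio of GBX2 from 8.42 to 5.96, CNPY1 from 8.50 to 6.65, AL359091.1 from 7.59 to 5.97, COL3A1 from 7.83 to 6.31, NTRK2 from 6.77 to 5.48, WNT7A from 6.20 to 5.21 and WLS from 5.15 to 4.36. Leaving out the highest doublet scores moved 33. The cause was not tested. A threshold of 3 IRX UMIs was added after seeing the data and left 435 members. No paired analysis was possible because each day is 1 library and the result comes from no test. Genes under 20 CPM in both groups were not called at this depth.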
